A study of Mus musculus with 8 samples.

Results

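The interferon regulatory factors are a family of transcription factors that switch on interferon genes and the genes that interferons induce. Of the 18184 genes that the arrays measured with at least 1 probe set of a single gene symbol, 8 belong to this family and were followed here: Irf1, Irf2, Irf3, Irf4, Irf5, Irf7, Irf8 and Irf9. A probe set is a group of short oligonucleotides on the array that read 1 transcript. The family had 14 probe sets whose annotation named only 1 family member and no other gene. Each gene was represented by its brightest probe set, the one with the highest mean over the 8 arrays, and the other 6 probe sets, of Irf3, Irf4, Irf5 and Irf8, served as a check. Members were chosen by name, with earlier results of these data known.

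Bone marrow-derived macrophages (BMDM), which are macrophages grown from marrow precursors, came from 4 mouse donors. Of these, 2 lacked miR-155, an LPS-inducible microRNA, and 2 were C57Bl/6 wild type (WT). The femoral marrow had been stored frozen, then thawed and grown for a week in medium conditioned by L929 cells, a fibroblast line that supplies the macrophage growth factor M-CSF. Cells of each donor received bacterial lipopolysaccharide (LPS, 100 ng/ml) for 24 h, with or without interleukin-10 (IL-10, 20 ng/ml) added minutes earlier, so that every array is of LPS-treated cells and none is of resting cells. The groups were miR-155-/-(LPS + IL-10), miR-155-/-(LPS), WT(LPS + IL-10) and WT(LPS), with 2 arrays each. By the labels the miR-155-/- donors were male and the WT donors female, whereas the study's methods describe female marrow donors. Genotype and sex therefore cannot be told apart in any comparison of miR-155-/- with WT arrays, and with 2 donors per genotype the same holds for differences between individual mice.

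LPS is sensed by Toll-like receptor 4, whose adaptors and kinases activate Irf3 and Irf5 proteins that are already present in the macrophage. Activated Irf3 turns on interferon beta, which acts back on the cell through its receptor. There Irf9 and Stat2 act in the complex ISGF3, which raises Irf7, which amplifies the response. Irf1 is induced by interferons and drives genes of antigen presentation and inflammation, Irf2 is best known for competing with Irf1 at the same DNA sites, Irf8 sets the identity of the macrophage and dendritic lineages, and Irf4 acts in alternatively activated macrophages and in lymphocytes. IL-10 signals through Stat3 and holds down much of the LPS response.

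The sequence missing from the knockout cells is mature miR-155-5p, encoded on mouse chromosome 16 (GRCm38.p6, chr16:84714143-84714165, plus strand, RefSeq). It is shown because it is what separates the genotypes by design, with the seed, bases 2 to 8, in capitals.
miR-155-5p: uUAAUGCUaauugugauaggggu

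The arrays do not read the mature microRNA. Its host transcript Mir155hg measured 1.70 and 2.00 in miR-155-/-(LPS + IL-10), against 2.14 and 2.19 in miR-155-/-(LPS), with 2.31 and 2.01 in WT(LPS + IL-10), against 2.73 and 4.02 in WT(LPS), on the log2 scale of all values given here. These levels do not check the genotype labels.

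The family members are also regulated through their own promoters by the factors they work with, so the 300 bases around each transcription start, 250 before it and 50 after, were searched on both strands for 2 short motifs. The first, GAAANNGAAA, is the core of the interferon-stimulated response element that IRF proteins and ISGF3 bind. It was present in 3.44% of 32851 mouse promoters and in 1 of the 11 promoters of the 8 family genes, a promoter of Irf2. The second, TTCNNNGAA, is the gamma-activated site bound by STAT dimers. It was present in 8.3% of all promoters and in 3 of the 11 family promoters, of Irf1, Irf2 and Irf8. The windows below are 30 bases of the plus strand with the match in capitals, and they are shown because they are all the matches found in the family. A match is a run of letters and not a shown binding site.
Irf2, interferon-stimulated response element core, chr8:46739495-46739524: tggggaagtGAAAATGAAAttgacttttcc
Irf2, gamma-activated site, chr8:46739510-46739539: gaaattgacttTTCCGAGAAatgatgaaag
Irf8, gamma-activated site, chr8:120736176-120736205: gcaaaagtgatTTCTCGGAAagagagcgct
Irf8, gamma-activated site, chr8:120736194-120736223: aaagagagcgcTTCAGAGAAggcggatttg
Irf1, gamma-activated site, chr11:53769913-53769942: aacagcctgatTTCCCCGAAatgatgaggc

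Counted from the transcription start, the Irf2 matches lay at bases -241 to -232 and -224 to -216, within a few bases of each other. The Irf8 matches lay at -171 to -163 and -153 to -145, and the Irf1 match at -90 to -82. No match to either motif was found in the windows of Irf3, Irf4, Irf5, Irf7 and Irf9.

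The values are log2 intensities after robust multi-array average (RMA) normalization. The precision is limited by 2 arrays per group. Macrophage markers (Adgre1, Csf1r, Cd68, Lyz2 and 4 more) had medians between 12.59 and 12.82 on the 8 arrays, and lists of dendritic, B cell, T and NK cell and neutrophil markers had medians between 2.33 and 3.62. Of the 11 fibroblast and stromal markers, the median was 10.13 and 10.06 on both arrays of WT donor 1, WT(LPS + IL-10) and WT(LPS), against 3.72 to 5.63 on the other 6. Single markers passed between the genotypes under LPS: the proteoglycan Lum was higher by 2.57 in miR-155-/-(LPS) BMDM than in WT(LPS) (limma, adjusted p = 0.0125), and of 7 neutrophil markers S100a8 and S100a9, also made by monocytes, were lower (-1.17 and -3.12, adjusted p = 0.0140 and 0.0153). Under LPS + IL-10, S100a9 was lower in miR-155-/- than in WT (-4.44, adjusted p = 0.0186), and S100a8 was higher with IL-10 in miR-155-/- BMDM (1.59, adjusted p = 0.0026). WT donor 2 stood apart in some lymphocyte markers and not in others. Of those measured, Cd79a, Cd79b, Ms4a1, Pax5, Cd3d and Ncr1 were not above every other array on both arrays of WT donor 2. On its WT(LPS + IL-10) and WT(LPS) arrays the plasma cell gene Jchain was 5.45 and 4.47, against 1.87 to 2.59 on the other 6, the T cell gene Cd3e 4.71 and 4.14, against 2.49 to 3.27, and Cd8a 3.63 and 3.25, against 2.29 to 2.71. The part of other cells in the results was not tested.

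Some results on the family and its pathway are also given without WT donor 1. In that fit each WT group is 1 array, of WT donor 2, which is assumed to vary like the miR-155-/- groups, and the donor block was dropped as well because its correlation could not be estimated, so that both choices changed together. The marker calls changed in it too. Between the genotypes under LPS, the counts were 0 fibroblast markers higher, 1 neutrophil marker lower and 1 T and NK cell marker lower, and under LPS + IL-10 they were 1 B cell, 1 T and NK cell and 1 neutrophil marker lower. With IL-10 in miR-155-/- BMDM, 1 fibroblast marker was lower. In such bulk samples fewer cells of a type and less RNA per cell cannot be told apart.

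**Figure D1:**
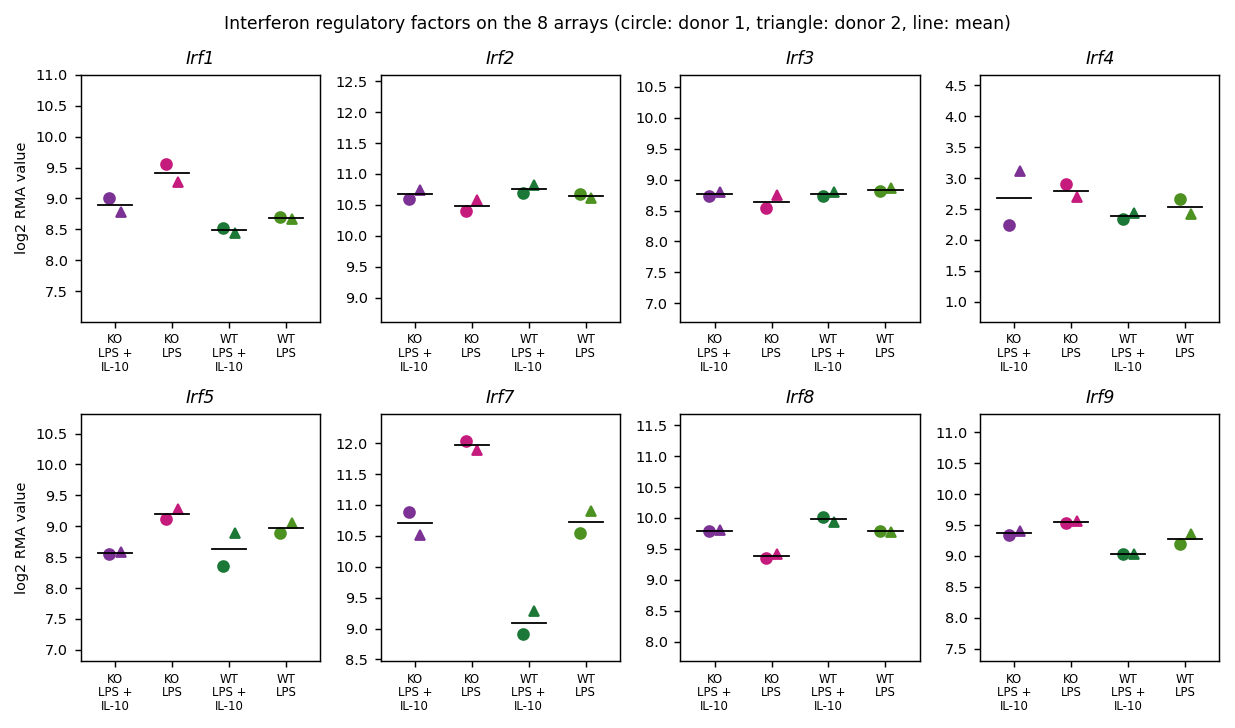
Log2 RMA value (vertical axes, each spanning 4 units) of the brightest probe set of each interferon regulatory factor in miR-155-/-(LPS + IL-10), miR-155-/-(LPS), WT(LPS + IL-10) and WT(LPS), with knockout labelled KO; circles are donor 1, triangles donor 2 and lines group means. Irf7 moves over 2.87 units between group means, the other 7 genes over less than 1.

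Irf7 stood apart from the other 7 members. Its 4 group means spanned 2.87 units, against 0.93 for Irf1, 0.63 for Irf5, 0.59 for Irf8, 0.52 for Irf9, 0.41 for Irf4, 0.27 for Irf2 and 0.19 for Irf3. Irf7 was higher in miR-155-/-(LPS) BMDM than in WT(LPS) and fell with IL-10 in miR-155-/- BMDM. No other member passed an adjusted p of 0.05 in any of the 5 comparisons made, which were the genotypes under LPS, the genotypes under LPS + IL-10, IL-10 in miR-155-/-, IL-10 in WT, and how far the IL-10 effect differed by genotype.

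Irf7, the factor that amplifies interferon production, measured 10.89 and 10.51 in miR-155-/-(LPS + IL-10), against 12.04 and 11.88 in miR-155-/-(LPS), with 8.91 and 9.28 in WT(LPS + IL-10), against 10.54 and 10.90 in WT(LPS). Both miR-155-/-(LPS) arrays lay above every other array, both WT(LPS + IL-10) arrays lay below every other array, and the miR-155-/-(LPS + IL-10) and WT(LPS) arrays covered the same range. The means of these overlapping groups were 10.70 ± 0.27 in miR-155-/-(LPS + IL-10) and 10.72 ± 0.26 in WT(LPS) (SD, n = 2 each), a pair of groups that differ in both genotype and treatment and were not tested against each other.

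Under LPS alone, Irf7 averaged 11.96 ± 0.11 in miR-155-/- and 10.72 ± 0.26 in WT BMDM (SD, n = 2 each), a log2 difference of 1.24 (SE 0.20, 95% interval 0.77 to 1.71), or 2.37-fold (limma, adjusted p = 0.0381). This 1 member of 8 compares with 1.46% of the 45008 probe sets called in the same comparison and 0.951% called higher. The call was lost when any 1 of the 8 arrays was left out, with adjusted p between 0.0564 and 0.224 and differences of 1.10 to 1.38. Without the donor block the adjusted p was 0.0493, and without the block and WT donor 1 together, with 1 array left in WT(LPS), the difference was 1.06 (adjusted p = 0.140).

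Under LPS + IL-10, Irf7 averaged 10.70 ± 0.27 in miR-155-/- and 9.09 ± 0.26 in WT BMDM (SD, n = 2 each). The difference of 1.61 (95% interval 1.14 to 2.07), or 3.04-fold, did not pass (limma, adjusted p = 0.0617). Its unadjusted p of 7.96e-05 was smaller than the 0.0004 under LPS alone, but 0.0711% of all probe sets were called here and the adjusted threshold was harder to reach. The groups did not overlap.

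Irf7 was lower with IL-10 in each of the 4 donors. The value under LPS + IL-10 minus that under LPS within a donor was -1.15 and -1.37 in the miR-155-/- donors and -1.63 and -1.62 in the WT donors. In miR-155-/- BMDM the mean change of -1.26 (SE 0.17, 95% interval -1.67 to -0.86) passed (limma, adjusted p = 0.0159), as 1 member of 8 against 2.68% of all probe sets called and 1.42% called lower. That call was lost when any of the 4 miR-155-/- arrays was left out (adjusted p = 0.0646 to 0.139) and kept when any 1 WT array was, and it was lost without the donor block (adjusted p = 0.0506). In WT BMDM the mean change of -1.63 (95% interval -2.03 to -1.22), or 3.09-fold lower, did not pass (limma, adjusted p = 0.0603), with 0.0311% of all probe sets called in that comparison, and passed with donor as a fixed block (adjusted p = 0.0247). The IL-10 effect differed between genotypes by 0.36 (95% interval -0.21 to 0.94, adjusted p = 0.632), miR-155-/- minus WT, so no difference in how far IL-10 lowered Irf7 was detected, with differences of up to 0.94 inside the interval.

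Irf1 and Irf9, both induced by interferon signalling, lay on the same side as Irf7 in each comparison of 2 groups, over a narrower range, and did not pass. Irf1 measured 9.01 and 8.79 in miR-155-/-(LPS + IL-10), against 9.56 and 9.27 in miR-155-/-(LPS), with 8.53 and 8.45 in WT(LPS + IL-10), against 8.69 and 8.67 in WT(LPS). The miR-155-/- arrays lay above the WT arrays of the same treatment, and the LPS + IL-10 arrays lay below the LPS arrays of the same genotype. Under LPS the log2 difference of Irf1 between miR-155-/- and WT was 0.73 (SE 0.15, 95% interval 0.38 to 1.08), which had an unadjusted p of 0.0016 and did not pass after adjustment (limma, adjusted p = 0.0719). Under LPS + IL-10 it was 0.41 (95% interval 0.06 to 0.76, adjusted p = 0.486).

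Within donors IL-10 changed Irf1 by -0.55 and -0.48 in miR-155-/- and by -0.16 and -0.22 in WT BMDM. The mean changes were -0.51 (95% interval -0.82 to -0.21, adjusted p = 0.0977) and -0.19 (95% interval -0.50 to 0.11). Neither passed, and the difference between them of -0.32 (95% interval -0.75 to 0.11) did not pass either (limma, adjusted p = 0.575). Irf9, the DNA-binding subunit of ISGF3, measured 9.34 and 9.41 in miR-155-/-(LPS + IL-10), against 9.54 and 9.57 in miR-155-/-(LPS), with 9.04 and 9.03 in WT(LPS + IL-10), against 9.20 and 9.35 in WT(LPS). Both miR-155-/-(LPS) arrays were highest and both WT(LPS + IL-10) arrays lowest, with the miR-155-/-(LPS + IL-10) and WT(LPS) arrays overlapping between them. Its log2 differences between miR-155-/- and WT were 0.28 under LPS (adjusted p = 0.391) and 0.34 under LPS + IL-10 (adjusted p = 0.494), and with IL-10 it changed by -0.18 in miR-155-/- (adjusted p = 0.472) and -0.24 in WT BMDM (adjusted p = 0.551).

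Irf8, the lineage factor, ran the opposite way. It measured 9.79 and 9.80 in miR-155-/-(LPS + IL-10), against 9.35 and 9.42 in miR-155-/-(LPS), with 10.02 and 9.94 in WT(LPS + IL-10), against 9.79 and 9.78 in WT(LPS). The miR-155-/- arrays lay below the WT arrays of the same treatment and the LPS + IL-10 arrays lay above the LPS arrays of the same genotype, in mirror image to Irf1, Irf7 and Irf9. The log2 difference between miR-155-/- and WT was -0.40 under LPS (95% interval -0.68 to -0.12, unadjusted p = 0.0124, limma, adjusted p = 0.197) and -0.18 under LPS + IL-10. IL-10 changed Irf8 by 0.44 and 0.38 in the miR-155-/- donors, with a mean of 0.41 (unadjusted p = 0.0055, adjusted p = 0.101), and by 0.23 and 0.16 in the WT donors. The second probe set of Irf8 lay between 7.89 and 8.26 and did not repeat these differences, with values of -0.06 and -0.15 between the genotypes under LPS and under LPS + IL-10, and 0.02 and 0.10 for IL-10 in miR-155-/- and in WT.

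Irf2, the competitor of Irf1, varied little. It measured 10.59 and 10.74 in miR-155-/-(LPS + IL-10), against 10.40 and 10.58 in miR-155-/-(LPS), with 10.70 and 10.82 in WT(LPS + IL-10), against 10.68 and 10.61 in WT(LPS). Its largest log2 difference in the 4 comparisons of 2 groups was 0.18, for IL-10 in miR-155-/- BMDM (95% interval -0.10 to 0.46), and the genotypes overlapped under LPS + IL-10.

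Irf3 and Irf5 are the members that LPS signalling activates as proteins, and neither passed in any comparison. On the brightest probe sets Irf3 was the most even of the family, with 8.73 and 8.81 in miR-155-/-(LPS + IL-10), against 8.54 and 8.74 in miR-155-/-(LPS), with 8.74 and 8.79 in WT(LPS + IL-10), against 8.81 and 8.86 in WT(LPS). Its log2 difference between miR-155-/- and WT was -0.19 under LPS (95% interval -0.50 to 0.11) and 0.0003 under LPS + IL-10 (95% interval -0.30 to 0.30). The 3 further probe sets of Irf3 gave differences between -0.36 and 0.21 in these 2 comparisons, in both directions, and none passed. Of these, 1 was less even, with group means from 6.06 in miR-155-/-(LPS) to 6.60 in WT(LPS + IL-10).

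Irf5 measured 8.55 and 8.59 in miR-155-/-(LPS + IL-10), against 9.12 and 9.27 in miR-155-/-(LPS), with 8.36 and 8.89 in WT(LPS + IL-10), against 8.90 and 9.05 in WT(LPS). It was lower with IL-10 in all 4 donors, by -0.57 and -0.68 in miR-155-/- and -0.53 and -0.16 in WT BMDM. The mean change was -0.63 in miR-155-/- (SE 0.16, 95% interval -1.01 to -0.25, unadjusted p = 0.006, limma, adjusted p = 0.106) and -0.35 in WT BMDM (95% interval -0.73 to 0.04). The second probe set of Irf5 stayed between 8.45 and 8.76 and gave 0.01 and 0.02 for the same changes. The 2 probe sets of Irf5 thus differed on IL-10, as did those of Irf8, and which of them follows the whole gene was not tested.

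Irf4 was low. It measured 2.23 and 3.12 in miR-155-/-(LPS + IL-10), against 2.90 and 2.70 in miR-155-/-(LPS), with 2.34 and 2.44 in WT(LPS + IL-10), against 2.66 and 2.42 in WT(LPS), below the median log2 value of each array, which was 3.88 to 3.97. The within-donor changes with IL-10 were -0.66 and 0.42 in miR-155-/- and -0.32 and 0.02 in WT BMDM, without a common direction. Its second probe set lay between 1.84 and 3.49 and was lower with IL-10 in all 4 donors, by -0.26 and -1.02 in miR-155-/- and -0.70 and -0.98 in WT BMDM. The mean changes of -0.64 (limma, adjusted p = 0.331) and -0.84 (unadjusted p = 0.0248, adjusted p = 0.475) did not pass, and neither did its genotype differences of -0.57 under LPS and -0.37 under LPS + IL-10, where the brightest probe set gave 0.26 and 0.29. No detection call comes with RMA values, so these arrays do not settle whether Irf4 was expressed.

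**Figure D2:**
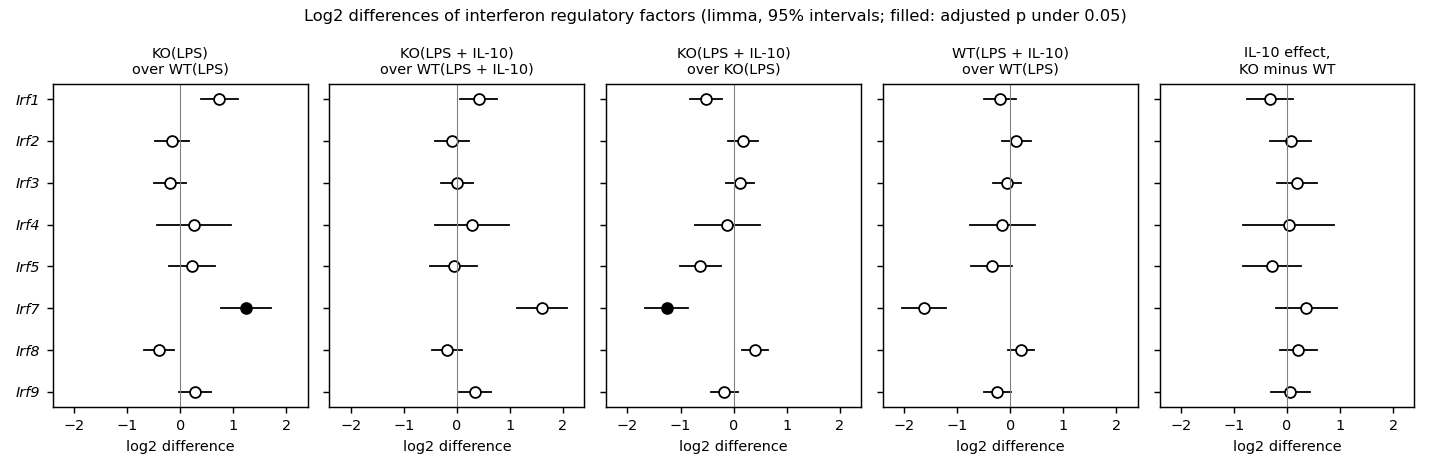
Log2 difference (horizontal axes) of each interferon regulatory factor in the comparisons of miR-155-/- with WT under LPS and under LPS + IL-10, of LPS + IL-10 with LPS in miR-155-/- and in WT, and in the IL-10 effect of miR-155-/- minus that of WT, with knockout labelled KO; points are limma estimates, bars 95% intervals and filled points have an adjusted p under 0.05. Only Irf7 is filled, at 1.24 between the genotypes under LPS and at -1.26 for IL-10 in miR-155-/-.

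Counted over the family, 3 members had an unadjusted p under 0.05 between the genotypes under LPS (Irf1 and Irf7 higher, Irf8 lower), against 13.8% of all probe sets. Under LPS + IL-10 there were 3 (Irf1, Irf7 and Irf9, all higher, against 8.95%). For IL-10 there were 4 in miR-155-/- (Irf1, Irf5 and Irf7 lower and Irf8 higher, against 17.3%) and 1 in WT BMDM (Irf7, against 9.27%). For the genotype difference in the IL-10 effect there was none, against 10.4% of all probe sets, and at an adjusted p under 0.05 none of 8 against 0.0333%. The median log2 difference over the 8 members was 0.24, 0.14, -0.15, -0.17 and 0.07 in these 5 comparisons, beside medians over all probe sets of 0.02, 0.03, 0.01, 0.00 and 0.00. Under the selection that the study's methods describe, an unadjusted p under 0.05 with a log2 difference beyond 1, Irf7 alone of the family was selected in each of the 4 comparisons of 2 groups, where 2.52%, 1.22%, 2.51% and 0.689% of all probe sets were.

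Arrays of groups that did not overlap were common in this design and are not in themselves a sign of change. They made up 46.5% of probe sets between the genotypes under LPS and 38.9% under LPS + IL-10, and 47.9% for IL-10 in miR-155-/- and 32.8% in WT BMDM. In the family, the groups compared lay apart for Irf1, Irf7, Irf8 and Irf9 in each of the 4 comparisons of 2 groups. Irf2, Irf3, Irf4 and Irf5 lay apart between the genotypes under LPS as well, and overlapped under LPS + IL-10. For IL-10, Irf2 and Irf5 lay apart in both genotypes, Irf3 in WT only and Irf4 in neither.

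Across the 8 arrays Irf1, Irf7 and Irf9 ran opposite to Irf2 and Irf8. This is a description with no test, because the arrays share donors and the same group differences. Irf4 had Pearson correlations of -0.50 to 0.55 with the other members, Irf5 of -0.76 to 0.70 and Irf3 of -0.78 to 0.75. Irf7 had Pearson correlations of 0.95 with Irf9 and 0.89 with Irf1, and Irf1 of 0.87 with Irf9. Irf8 had correlations of -0.94 with Irf7, -0.94 with Irf1, -0.89 with Irf9 and 0.82 with Irf2. All correlations use the brightest probe set of each gene, and the second probe set of Irf8 did not repeat the differences of the first. Irf1 and Irf2, which share binding sites, were correlated at -0.89.

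**Figure D3:**
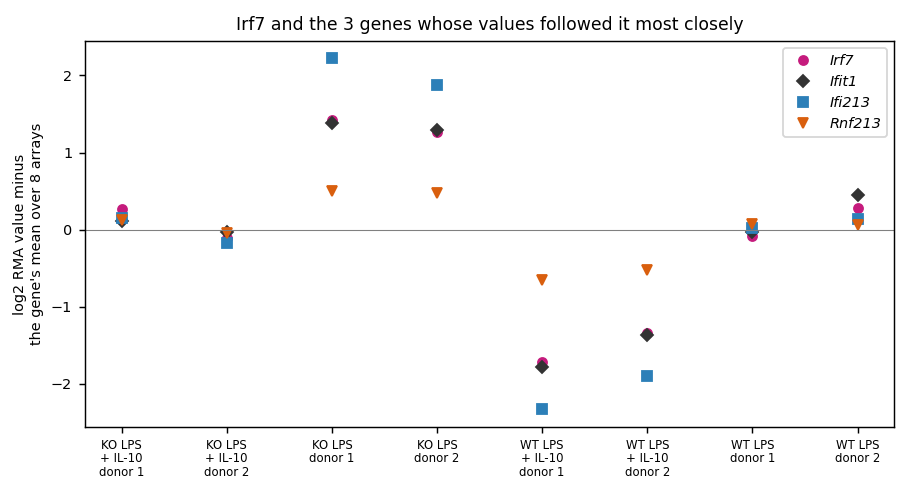
Log2 RMA value minus each gene's own mean over the 8 arrays (vertical axis) for Irf7, Ifit1, Ifi213 and Rnf213 on each array, ordered by group and donor, with knockout labelled KO. All 4 genes are highest on the miR-155-/-(LPS) arrays and lowest on the WT(LPS + IL-10) arrays, and Rnf213 moves least, over 1.09 units between group means.

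Irf7 was the only member whose group means spanned more than 1 unit, and the 3 of the 18184 genes with the highest Pearson correlation to it over the 8 arrays were Ifit1, Ifi213 and Rnf213. Ifit1, an interferon-induced protein that binds viral RNA, had r = 0.996 and measured 10.79 and 10.65 in miR-155-/-(LPS + IL-10), against 12.06 and 11.97 in miR-155-/-(LPS), with 8.90 and 9.31 in WT(LPS + IL-10), against 10.65 and 11.13 in WT(LPS). As with Irf7, the miR-155-/-(LPS + IL-10) and WT(LPS) arrays shared a range. Ifi213, an interferon-inducible member of the p200 family, had r = 0.99 and group means spanning 4.16 units, and Rnf213, a large interferon-inducible ubiquitin ligase, had r = 0.99.

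The pathway lists were counted beside all probe sets. Of these, 1.46% passed between the genotypes under LPS and 0.0711% under LPS + IL-10. With IL-10, 2.68% passed in miR-155-/- and 0.0311% in WT BMDM. At an unadjusted p under 0.05 between the genotypes under LPS, 13.8% did. Of 18 measured sensors, adaptors and kinases upstream of Irf3, Irf5 and Irf7, none passed between the genotypes under LPS (limma; at an unadjusted p under 0.05, 9 were higher and 1 was lower), with a median log2 difference of 0.38, none passed under LPS + IL-10 or for IL-10 in WT, and 2 fell with IL-10 in miR-155-/- BMDM. These 2 were the cytosolic RNA sensors Rigi (-1.41, adjusted p = 0.0160) and Ifih1 (-1.27, adjusted p = 0.0153), which interferons also induce. The LPS receptor Tlr4 had log2 differences of -0.39 between the genotypes under LPS and 0.40 and 0.43 for IL-10 in miR-155-/- and WT, none past the threshold. The kinases that activate Irf3, Tbk1 and Ikbke, differed by 0.41 and 0.46 between the genotypes under LPS and did not pass.

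Of 10 measured interferons, receptors, Janus kinases and Stat2, 2 were higher in miR-155-/-(LPS) BMDM than in WT(LPS) and 3 fell with IL-10 in miR-155-/- BMDM. Stat2, the ISGF3 subunit that partners Irf9, measured 8.73 and 8.64 in miR-155-/-(LPS + IL-10), against 9.97 and 9.59 in miR-155-/-(LPS), with 7.84 and 7.75 in WT(LPS + IL-10), against 8.62 and 8.75 in WT(LPS). It was higher by 1.10 in miR-155-/-(LPS) BMDM than in WT(LPS) (limma, adjusted p = 0.0297) and fell by 1.10 with IL-10 in miR-155-/- BMDM (adjusted p = 0.0130), against -0.89 in WT, which did not pass. The pattern over groups was that of Irf7 and Irf9.

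Jak2, a kinase of several cytokine receptors, was higher by 1.27 in miR-155-/-(LPS) BMDM than in WT(LPS) (adjusted p = 0.0231) and fell by 0.86 with IL-10 in miR-155-/- BMDM (adjusted p = 0.0355), and Tyk2, a kinase of the interferon and IL-10 receptors, fell by 0.80 there (adjusted p = 0.0477). With IL-10 in WT these 2 kinases had differences of 0.04 and 0.17. The genotypes were not shown to differ in this (adjusted p = 0.307 for Jak2 and 0.292 for Tyk2). Ifnb1 and Ifna4, the interferon genes on the list, lay between 1.52 and 3.47 on every array, below the array medians, and did not pass in any comparison at this single time of 24 h.

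Of the 11 partner factors of the IRF proteins, Batf alone passed. Batf, which binds DNA together with Irf4 and Irf8, measured 7.12 and 6.83 in miR-155-/-(LPS + IL-10), against 7.76 and 7.41 in miR-155-/-(LPS), with 6.40 and 6.08 in WT(LPS + IL-10), against 6.28 and 5.91 in WT(LPS). It was higher by 1.50 in miR-155-/-(LPS) BMDM than in WT(LPS) (limma, adjusted p = 0.0215). Spi1, which encodes PU.1, the partner of Irf4 and Irf8 in myeloid cells, differed by 0.54 and did not pass (adjusted p = 0.116), and Irf2bp2, a co-repressor of Irf2, differed by -0.07.

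Of 11 measured inhibitors of IRF signalling, all 11 had positive differences between miR-155-/-(LPS) and WT(LPS). Their median was 0.62, beside 0.02 over all probe sets. Of them 2 passed, Peli1 (0.80, limma, adjusted p = 0.0395), a ubiquitin ligase, and Nmi (0.85, adjusted p = 0.0472), an interferon-induced protein. With IL-10 in miR-155-/- BMDM, Nmi (-0.70, adjusted p = 0.0419) and Trim21 (-0.63, adjusted p = 0.0438), a ubiquitin ligase that acts on IRF proteins, fell. Usp18, which blocks the interferon receptor, had differences of 0.96 between the genotypes under LPS and -0.86 and -1.14 for IL-10 in miR-155-/- and WT, none past the threshold. Without WT donor 1 and without the donor block, no gene of the sensor, interferon and receptor, partner or inhibitor lists passed between the genotypes under LPS, and 2, 1, 1 and 0 genes of them in that order fell with IL-10 in miR-155-/- BMDM.

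**Figure D4:**
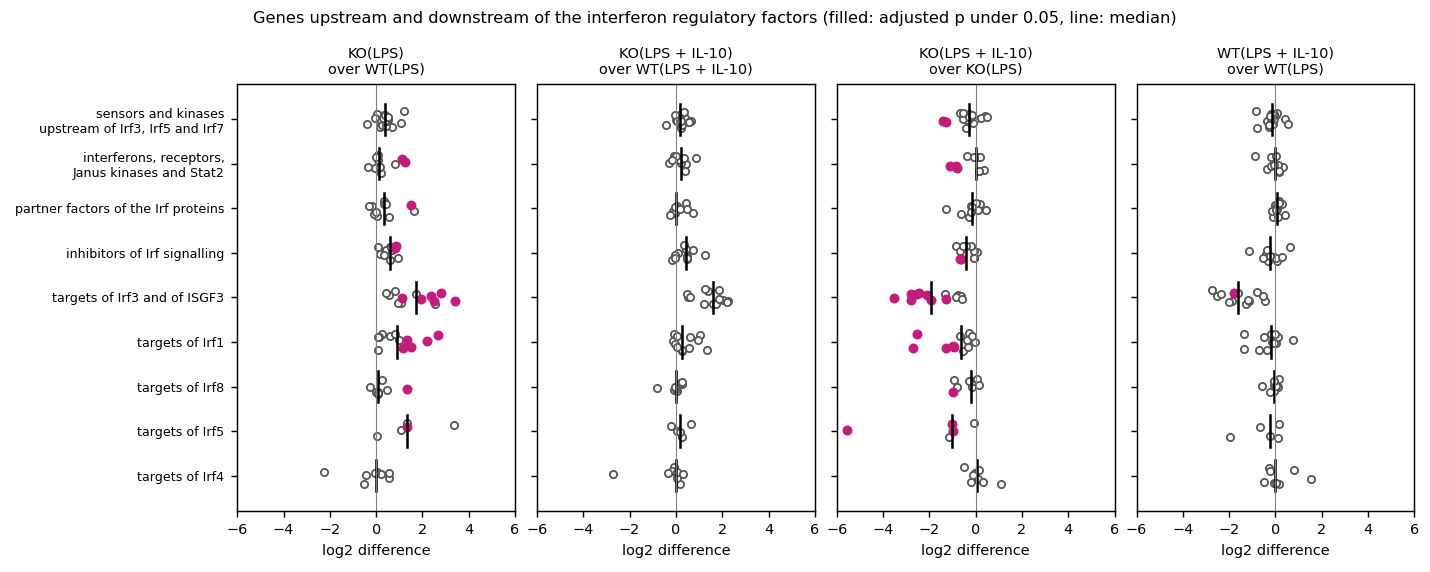
Log2 difference (horizontal axes) of each measured gene in 9 lists of genes upstream and downstream of the interferon regulatory factors, by comparison, with knockout labelled KO; filled points have an adjusted p under 0.05 and lines are list medians. Targets of Irf3 and of ISGF3 have medians of 1.73 between the genotypes under LPS and -1.95 for IL-10 in miR-155-/-.

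The targets of Irf3 and of ISGF3, the antiviral interferon-induced genes, had the medians furthest from 0 among the 5 target lists in the 4 comparisons of 2 groups. All 13 measured were positive between miR-155-/-(LPS) and WT(LPS), with a median of 1.73, beside 0.02 over all probe sets. Of the 13, 6 passed: the chemokine Cxcl10 (3.39, limma, adjusted p = 0.0061), the exonuclease Isg20 (2.80, adjusted p = 0.0061), the antiviral GTPases Mx1 (2.50, adjusted p = 0.0378) and Mx2 (2.39, adjusted p = 0.0221), Oasl1 (1.95, adjusted p = 0.0223) and Ifit1 (1.13, adjusted p = 0.0475). Under LPS + IL-10 the median was 1.62 and none passed. With IL-10 the median was -1.95 in miR-155-/- BMDM, where 8 fell: Cxcl10, Isg20, Mx1, Mx2, Oasl1, Ifit1, Ifit2 and Ifit3, with differences of -1.29 to -3.53. In WT BMDM it was -1.61, and Ifit1 fell (-1.78, adjusted p = 0.0472). Without WT donor 1 and without the donor block, 2 were higher in miR-155-/-(LPS), with a median of 1.46, and 6 fell with IL-10 in miR-155-/- BMDM. The genotype difference in the IL-10 effect passed for none of the 13.

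Of 12 measured targets of Irf1, 5 were higher in miR-155-/-(LPS) BMDM than in WT(LPS), with a median of 0.89. They were the interferon-induced GTPases Gbp2 (2.20, limma, adjusted p = 0.0201) and Gbp3 (2.69, adjusted p = 0.0109), the peptide transporter Tap1 (1.51, adjusted p = 0.0221), the immunoproteasome subunit Psmb9 (1.16, adjusted p = 0.0275) and Il12b (1.33, adjusted p = 0.0347), which encodes a subunit of IL-12. With IL-10 in miR-155-/- BMDM, Gbp2, Gbp3, Tap1, Il12b and Il15 fell, with differences of -0.92 to -2.72, and in WT none passed. Without WT donor 1 and without the donor block these counts were 2 higher and 3 lower. Il12b lay between 3.82 and 5.28 on every array, and Nos2 and Ciita, other known targets of Irf1, between 2.30 and 4.07.

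Of 8 Irf8 targets, Il12b alone was higher in miR-155-/-(LPS), and the median was 0.09. Of 5 Irf5 targets, which are inflammatory cytokines, the median was 1.33, which is the difference of Il12b itself. Il12b was again the 1 that was higher in miR-155-/-(LPS). It measured 5.09 and 5.28 there, against 3.82 to 4.51 on the other arrays, near the array medians of 3.88 to 3.97. Il12a and Il23a lay between 1.33 and 4.19 on every array. Il6 (-5.54, limma, adjusted p = 0.0257), Tnf (-1.04, adjusted p = 0.0267) and Il12b (-0.97, adjusted p = 0.0430) fell with IL-10 in miR-155-/- BMDM. Without WT donor 1 and without the donor block, 1 of the 5 fell there and no Irf8 target passed between the genotypes under LPS. Il6 measured 4.23 and 4.75 in miR-155-/-(LPS + IL-10), against 9.93 and 10.12 in miR-155-/-(LPS), with 6.52 and 2.86 in WT(LPS + IL-10), against 7.29 and 6.05 in WT(LPS), so its WT arrays of a group were far apart. None of the 8 Irf4 targets passed in any comparison, and their medians were -0.02 between the genotypes under LPS and 0.04 and -0.01 for IL-10 in miR-155-/- and WT. These medians cover differences in both directions. Arg1 differed between the genotypes by -2.24 under LPS and -2.70 under LPS + IL-10 (limma, adjusted p = 0.187 and 0.283). In each of these comparisons 4 of the 8 were positive, with Fcgr2b at 0.54 and Prdm1 at 0.55 under LPS. Chil3, Retnla and Cd209a lay between 1.25 and 2.28 on every array. Il12b stands in 3 of these lists, so its calls are the same measurement. Cybb and Ciita likewise stand in the lists of Irf1 and Irf8 targets. Usp18 stands in the inhibitor list and in that of Irf3 and ISGF3 targets.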

How the data were processed

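Per the labels and the study's methods, the authors amplified and labelled the RNA with NuGEN kits, hybridised it to Affymetrix mouse whole-genome arrays and normalized the raw data by RMA in the affy package. The deposited values are log2 intensities per probe set, 8 arrays in 1 table with 0 array columns of no sample. The sources used here give no version of affy, RMA or the limma the authors ran.

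Of 45101 probe sets, 64 controls and 29 of Y-linked genes or Xist were left out, as in the study's methods, and 45008 were tested. Names came from the platform annotation: 34958 probe sets had 1 symbol, 932 several and 9211 none. Group means were fitted over all 8 arrays with limma 3.58.1 (R 4.3.3, statmod 1.5.0), with mouse donor as a random block (duplicateCorrelation, consensus 0.24), moderated by eBayes and adjusted by Benjamini-Hochberg over all probe sets. A call is an adjusted p below 0.05. The tests are two-sided. The fit was also run on simulated data as a check of the code, which does not measure the precision of the differences given here. A donor is a genotype with its replicate number. The labels do not say outright that both arrays of a replicate number came from 1 mouse. This was inferred from the 2 mice per genotype and the donor block in the study's methods. Deviations of the paired arrays from their group means were correlated at 0.23 in miR-155-/- and 0.75 in WT.

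The named genes are all 8 members, for each member whose group means spanned over 1 unit the 3 genes most correlated with it, and the genes of the pathway lists that passed, with examples of those that did not. Members, lists and tests were chosen with earlier results of these data known. Promoters and miR-155-5p were taken from RefSeq (GRCm38.p6); 8 of 8 members matched by symbol.

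Alternatives were other blocks, filters, normalizations, probe set summaries and the removal of each array.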

Additional observations from a re-analysis of the deposited data

How the results depend on the processing

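The count of members called varied with the fit, and Irf7 was the member called most often. In the order genotypes under LPS, genotypes under LPS + IL-10, IL-10 in miR-155-/- and IL-10 in WT, the counts were 1, 0, 1 and 0. They became 3 (Irf1, Irf7, Irf8), 1 (Irf7), 4 (Irf1, Irf5, Irf7, Irf8) and 1 (Irf7) when probe sets averaging below 6 were dropped, 2, 1, 4 and 1 with an intensity trend and robust variance prior, and 2, 1, 2 and 1 with the mean over a gene's probe sets. Without the replicate block the count for IL-10 in miR-155-/- was 0 (Irf7, adjusted p = 0.0506), with the replicate number as a fixed block it and the genotype count under LPS were 0, and with donor as a fixed replicate block IL-10 in WT had 1. Array weights gave 2 for IL-10 in miR-155-/- and median centring 1 for IL-10 in WT. The genotype count under LPS was 0 with only the arrays compared and without WT donor 1 (1 array per WT group and no replicate block, chosen after seeing the data), and the study's selection gave 1 for the genotypes under LPS + IL-10 and 1 for IL-10 in WT. With 1 array left out, and the lone array of its group assumed to vary like the other groups, the count was 0 throughout for the genotypes under LPS and 0 to 1 for IL-10 in miR-155-/-. With the random block, the fit without WT donor 1 and the fits of only the arrays compared for IL-10 could not be made. The direction of Irf7 held in all of these. The differences that changed sign belonged to members that did not pass. With the mean over probe sets, Irf4 became -0.16 and -0.040 between the genotypes under LPS and LPS + IL-10, and Irf3 became -0.19 between the genotypes under LPS + IL-10 (-0.0076 after a second quantile normalization), 0.14 for IL-10 in WT and -0.093 for the difference of the IL-10 effect. Without WT donor 1, Irf3 was -0.025 between the genotypes under LPS + IL-10, Irf4 0.018 for IL-10 in WT, and Irf2 -0.026 and Irf4 -0.14 for the difference of the IL-10 effect. With 1 array left out, the ranges were -0.59 to 0.35 (IL-10 in miR-155-/-), -0.18 to 0.76 (genotypes under LPS + IL-10) and -0.44 to 0.50 (difference of the IL-10 effect) for Irf4, -0.020 to 0.020 for Irf3 and -0.31 to 0.19 for Irf5 between the genotypes under LPS + IL-10, and -0.00079 to 0.14 for Irf2 and -0.013 to 0.14 for Irf9 in the difference of the IL-10 effect. The causes were not tested. The precision is limited by 2 arrays per group.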
